A study of Homo sapiens with 6 samples.

Results

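Transcripts annotated as retained intron were examined in Rh30, an established human line from an alveolar rhabdomyosarcoma with a fused PAX3-FOXO1 gene. The series holds poly(A)-selected, strand-marked RNA libraries from 2 groups, control cells and cells with a DDX5 knockdown labelled siDDX5, with 3 libraries in each (replicates 1, 2 and 3). Both groups are the same cell line with the same fusion, and the labels give neither what the control cells received nor a time. They do not say whether the replicates were separate cultures, so p-values measure only the spread between these libraries. The transcripts were chosen by annotation and by their mean level over all 6 libraries, a measure that does not use the difference between the groups. A transcript was kept when GENCODE release 29 gives it the class retained intron, when its gene has at least 1 protein-coding transcript, and when its mean over the 6 libraries was at least 1 TPM (a level corrected for transcript length and scaled to the same total in every library). Of 27250 retained-intron transcripts in such genes, 11948 (43.8%) met this rule, out of 188753 transcripts in the tables, and they lay in 5187 host genes. Of those left out, 3746 were listed at 0 in all 6 libraries and 11556 had a mean above 0 and under 1 TPM.

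Introns are removed from a primary transcript by the spliceosome, which pairs a 5′ splice site (the start of the intron, usually GT) with a 3′ splice site (its end, usually AG). When an intron stays in a polyadenylated transcript, the reading frame usually runs into an early stop codon. Such RNAs are often held in the nucleus as detained introns or, once exported, removed by nonsense-mediated decay. The genes of splicing factors themselves are known for this kind of regulation. DDX5 (also called p68) and its closest paralog DDX17 (p72) are DEAD-box RNA helicases that act in transcription, splicing and microRNA processing.

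The splice sites on which the results turn are those of intron 11 of 12 in DDX17 and of intron 11 of 12 in DDX5, each kept whole inside a retained-intron transcript. Both introns lie in coding sequence on the minus strand of GRCh38. The DDX17 intron is chr22:38488116-38492055 (3940 bases, 40.5% GC), in ENST00000216019.11, a transcript of 6441 bases. The DDX5 intron is chr17:64500774-64502009 (1236 bases, 42.3% GC), in ENST00000581230.5, a transcript of 3558 bases. The windows below run 5′ to 3′ from the last 5 exon bases to intron base 20 at the 5′ splice site, and from the last 25 intron bases to exon base 5 at the 3′ splice site. Capitals mark the first and the last pair of intron bases. They were read from the GENCODE transcripts that contain the introns and are shown so that the paralogs can be compared.
DDX17 intron 11, 5′ splice site: gctagGTttgtatagataggtgtct
DDX5 intron 11, 5′ splice site: gctagGTtagtacaaactcgcattc
DDX17 intron 11, 3′ splice site: cactgactcatcattgacgtggaAGatgtg
DDX5 intron 11, 3′ splice site: tttgccacactgcaacaccttacAGatgtg
The introns occupy the same place in both genes. Of the 60 exon bases before the intron 46 were identical between the paralogs, and of the 60 after it 51. The windows themselves were identical at 15 of 25 positions at the 5′ splice site and at 11 of 30 at the 3′ splice site.

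Another 2 transcripts named below do not hold a whole intron but run from an exon into one, or from one into an exon, and the site they cross is shown in the same way. ENST00000645950.1 of CD99 reads through the 5′ splice site of intron 7 of 9, chrX:2723365-2726259 (2895 bases, plus strand). ENST00000548326.1 of SRSF9 reads through the 3′ splice site of intron 3 of 3, chr12:120462163-120463949 (1787 bases, minus strand).
CD99 intron 7, 5′ splice site: agaggGTaggtgcacctggcttctg
SRSF9 intron 3, 3′ splice site: ctttttgtttttgtttgcatttcAGggtga

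**Figure D1:**
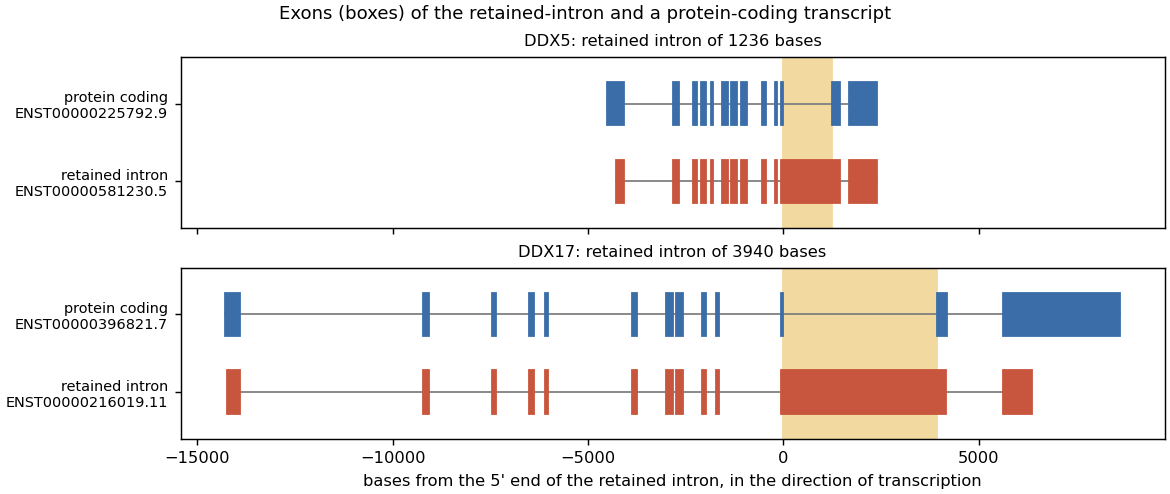
Exon maps of the DDX5 (top) and DDX17 (bottom) retained-intron transcripts (red) beside a protein-coding transcript of the same gene (blue). The horizontal axis is the distance in bases from the 5′ end of the retained intron in the direction of transcription, boxes are exons, and the shaded band is the intron of 1236 bases in DDX5 and 3940 bases in DDX17 that the red transcripts keep as exon.

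The annotated class covered more than whole introns. Of the 11948 expressed transcripts, 3145 (26.3%) held at least 1 whole intron of a protein-coding transcript of their gene, 2032 of them a single one. A further 8760 (73.3%) held part of an intron or other bases outside the exons of coding transcripts, and 43 held no base outside those exons. A transcript of this class had a median of 39.1% of its bases outside coding-transcript exons. Among those without a whole intron, 3271 read through a 5′ splice site only, 3727 through a 3′ splice site only, 1568 through both kinds and 237 through neither. The median length of all 11948 was 728 bases, against 1388.5 bases for the coding transcripts of the same genes. Of the 11948, 262 consist of 1 exon.

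The introns held whole were short. There were 4853 distinct ones in 2003 genes, with a median of 290 bases (quartiles 134 and 641), against a median of 1098 bases (quartiles 333 and 3136.5) for the other 32791 introns of these genes. Of the retained introns 4699 (96.8%) had the letters GT and AG at their ends, 85 (1.8%) had GC and AG, and 12 (0.2%) had AT and AC. Their median GC content was 53.0%, so the DDX17 and DDX5 introns shown above were longer and poorer in GC than most. The retained introns were the last intron of the gene in 13.3% of cases and the first in 10.6%, against 10.2% and 18.4% of the other introns. In all, 89.2% lay in coding sequence, 8.3% in 5′ UTR and 2.5% in 3′ UTR, against 84.1%, 15.1% and 0.8% of the other introns. These shares are counts over annotated introns and were given no test. An intron counted as retained had to fit inside 1 exon of a retained-intron transcript (median length 728 bases), which limits its length. Introns that such transcripts held only in part were counted with the other introns. The contrast in length is therefore set in part by the way of counting.

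Of 1562 microRNA hairpins in the RefSeq table (GRCh38.p14), 6 lay inside 6 different retained introns. They are MIR3064 in DDX5, MIR1248 in EIF4A2, MIR7113 in NDUFS8, MIR6840 in PILRB, MIR6748 in TMEM179B and MIR6785 in TMEM94. The MIR3064 hairpin (chromosome 17, 64500774 to 64500839) reaches the last base of the DDX5 intron 11 shown above.

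Most of these transcripts were at low levels and made up a small share of their genes. The median of the mean TPM was 2.72 (quartiles 1.62 and 5.3), 1355 transcripts had at least 10 TPM and 56 at least 100 TPM. The share of a transcript, its TPM as a percent of the summed TPM of its gene, had a median of 5.4% (quartiles 2.69 and 10.6). A share of at least 10% was reached by 3223 transcripts, of at least 50% by 181 and of at least 90% by 33. All but 904 were above 0 in every library, 2 were at 0 in all control libraries and 8 at 0 in all siDDX5 libraries. A single transcript of this kind was found in 2283 host genes and 5 or more in 532, with the most, 19, in DYNC1H1, the heavy chain of cytoplasmic dynein. At the threshold, the lowest 3 kept were in METTL17 (1.0002 TPM), TBCE (1.0002 TPM) and BRD8 (1.0003 TPM), and the highest 3 left out were in TMEM237 (0.9994 TPM), MAP1S (0.9993 TPM) and PAXIP1 (0.9991 TPM).

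The 10 highest came from a few very abundant messages. ENST00000488500.1 of EEF1A1, the translation elongation factor that brings aminoacyl-tRNA to the ribosome, had a mean of 5010 TPM and 39.4% of its gene. It holds 2 annotated introns of coding transcripts, the longer of 83 bases, but only 83 bases in all lie outside coding-transcript exons. Next came ENST00000553294.1 of STAC3, a protein of muscle excitation-contraction coupling (1190 TPM). Ribosomal protein genes gave 5 more, in RPL4 (877 TPM), RPL11 (598 TPM), RPS23 (577 TPM), RPL8 (493 TPM) and RPL14 (362 TPM). The others were in OS9, a lectin of endoplasmic reticulum quality control (737 TPM), in CDK4, the cell cycle kinase (446 TPM), and in RPS27A, a fusion of ubiquitin and a ribosomal protein (404 TPM). STAC3, OS9 and CDK4 lie within chromosome 12, positions 57249019 to 57752364. In this list the share that the retained-intron transcript took ranged from 4.01% in CDK4 to 58.1% in RPL8. The bases outside coding-transcript exons were 1.64% of the transcript in RPL14, 3.99% in STAC3, 6.42% in RPL8 and 10.5% in EEF1A1. They reached 25.7% in CDK4 and 38.3% in RPS27A. Reads from the other bases can be shared with coding transcripts, so these shares depend on how such reads were divided. None of the 10 was called for usage (the test is given below), and the groups overlapped in 8 of them. The exceptions, RPL4 and RPS23, were higher in all siDDX5 libraries, by 1.71 and 2.01 percentage points of their gene.

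The libraries held 26156858, 21265569 and 24229578 estimated counts in control and 19971888, 19282386 and 18202402 in siDDX5 cells. A floor of 3 counts corresponded to between 0.115 and 0.165 CPM (counts scaled to a common library total), and between 97.4% and 98.9% of the 11948 transcripts were above 0 in each library. DDX5 itself, the check of the labels, had 1560 TPM in control and 588 TPM in siDDX5 cells (log2 change -1.44, SE 0.15, adjusted p 0.0115, edgeR quasi-likelihood test). Of the defining rhabdomyosarcoma markers, DES, MYOD1, MYOG and FGFR4 were present in all libraries, while TFAP2B was listed at 0 and CDH3 was at most 0.355 TPM. Their summed level ran from 881 to 1230 TPM. The summed markers of fibroblasts (38.1 to 60.4 TPM), endothelial cells (4.19 to 7.04), leukocytes (1.35 to 4.31) and epithelial cells (1.9 to 3.57) were far lower. In bulk RNA, fewer cells of a type and less RNA per cell cannot be told apart.

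As a class, the expressed retained-intron transcripts did not separate the groups. They held 7.55%, 9.2% and 8.11% of all TPM in control replicates 1, 2 and 3, and 8.16%, 6.9% and 7.57% in siDDX5 replicates 1, 2 and 3. The means were 8.29% ± 0.839 (SD, n = 3) and 7.54% ± 0.634 (SD, n = 3). Control replicate 2 was the highest of all and siDDX5 replicate 2 the lowest, and the ranges overlapped. Between same-numbered libraries the value was higher in siDDX5 in replicate 1 and lower in replicates 2 and 3. All retained-intron transcripts, at any level, summed to 8.78% ± 0.879 in control and 7.97% ± 0.686 in siDDX5 cells (SD, n = 3 each; exact two-sided permutation p 0.5, where 3 against 3 cannot go below 0.1). Those with a whole intron took 2.27% ± 0.24 and 2.08% ± 0.133 of all TPM. EEF1A1 alone did not set the level, since without it the class held 7.75% ± 0.812 and 7.02% ± 0.554.

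**Figure D2:**
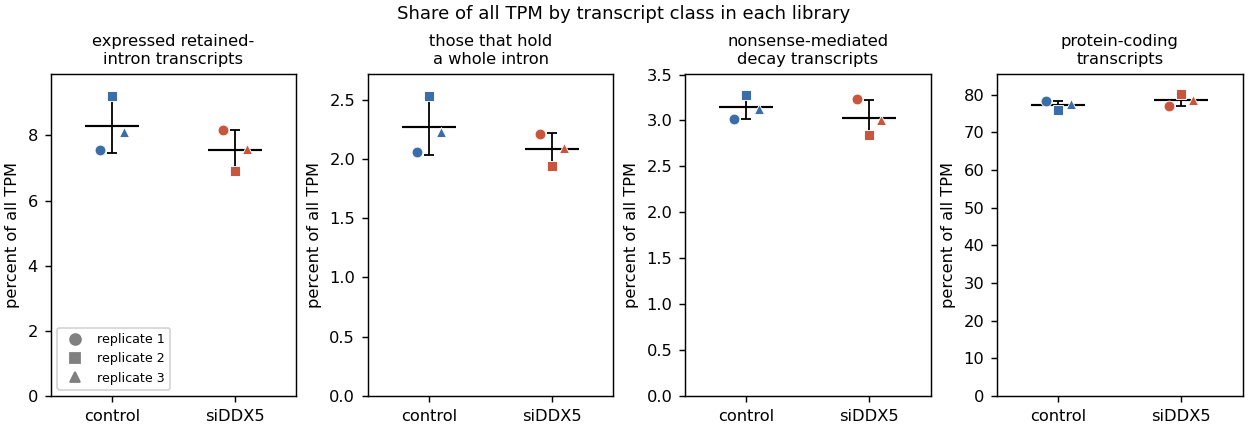
Percent of all TPM (vertical axes, each from 0) on 4 transcript classes in the 3 control (blue) and 3 siDDX5 (red) libraries, with the symbol giving the replicate number, the line the mean and the bar the SD. The expressed retained-intron transcripts range from 7.55% to 9.2% in control and from 6.9% to 8.16% in siDDX5 libraries, and replicate 2 is at the extreme of both groups in the first 3 classes.

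The other non-coding classes moved in the same libraries. Nonsense-mediated decay transcripts held 3.14% ± 0.13 of TPM in control and 3.02% ± 0.198 in siDDX5 cells, and processed transcripts 6.22% ± 0.362 and 5.81% ± 0.637, with control replicate 2 highest and siDDX5 replicate 2 lowest in each. Protein-coding transcripts held 77.2% ± 1.25 and 78.6% ± 1.73 (SD, n = 3 each), with the order of these libraries turned around. The part that RNA quality or yield in those libraries had in these values was not tested.

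Single transcripts were tested with the transcript-level usage test of edgeR (diffSpliceDGE on estimated counts). It compares the log change of a transcript with that of its gene, and can differ from the difference in TPM share. Adjustment was over all 56839 transcripts tested, and a transcript was called at an adjusted p under 0.05. Of the retained-intron transcripts 9368 passed the filter on low counts and 2580 did not. Of the 9368, 3 (0.032%) were called, all lower in siDDX5 cells. Over all transcripts tested 0.341% were called, 0.167% higher and 0.174% lower. Without adjustment, 97 retained-intron transcripts (1.04%) had a p under 0.05, against 2.89% of all transcripts tested. On simulated counts with a fixed spread the same test made false calls more often than its threshold allows. How often it does so in these libraries was not tested, so each call is given with its values in every library. The 3 called transcripts belong to DDX17, SRSF9 and CD99. The median log2 usage change of the 9368 was -0.13, against -0.029 over all transcripts, with 3357 above and 6011 below 0.

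In DDX17, ENST00000216019.11, the transcript that holds the whole intron 11 shown above, took 22.4%, 23.3% and 27.9% of the gene in control replicates 1, 2 and 3 and 10.8%, 9.01% and 10.2% in siDDX5 replicates 1, 2 and 3. All siDDX5 values lay below all control values, with no library near the other group. The mean share was 24.5% ± 2.94 in control and 10% ± 0.936 in siDDX5 cells (SD, n = 3 each), a log2 usage change of -1.3 (adjusted p 0.000684, edgeR diffSpliceDGE). Its level was 46.8 ± 8.26 TPM in control and 22.4 ± 5.42 TPM in siDDX5 cells, which the test of level by itself did not call (log2 change -1.0, SE 0.17, adjusted p 0.278, edgeR). Over 13 alternatives its adjusted p for usage ranged from 0.00067 to 0.29, and it was not called in the 2 limma-trend fits. A second transcript, ENST00000431312.2, starts inside the same intron and crosses its 3′ splice site into the next exon. Its share was 9.41%, 9.13% and 7.95% in control and 3.33%, 5.92% and 5.87% in siDDX5 libraries, also without overlap, and was not called (log2 usage change -0.83, adjusted p 1).

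The other 2 expressed retained-intron transcripts of DDX17 lie upstream of intron 11 and overlapped between groups. ENST00000497196.5 had 4.36% ± 1.43 and 3.31% ± 1.12 of the gene and ENST00000477112.1 had 3.0% ± 0.571 and 2.44% ± 1.13. Together the 4 made up 40.7% ± 3.2 of DDX17 in control and 20.8% ± 1.71 in siDDX5 cells. In the protein-coding transcripts the order was the opposite. ENST00000403230.2 had 72.2, 68.2 and 73.4 TPM in control and 130, 113 and 118 TPM in siDDX5 libraries, and ENST00000396821.7, which splices intron 11 out, had 22.6 ± 4.87 and 37.0 ± 8.36 TPM. Neither was called for usage (adjusted p 1). The gene as a whole had 190 TPM in control and 221 TPM in siDDX5 cells, a difference that was not called (log2 change 0.26, SE 0.11, adjusted p 0.409, edgeR).

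The same intron of DDX5 gave no such difference. ENST00000581230.5 took 17.3%, 22.4% and 23.4% of DDX5 in control and 17.8%, 22% and 23.1% in siDDX5 libraries. The groups overlapped almost completely, and replicate 1 was the lowest in both. The mean was 21.0% ± 3.24 and 21.0% ± 2.77 (SD, n = 3 each), with a log2 usage change of 0.04 (adjusted p 1, edgeR diffSpliceDGE). Its level followed the gene: 288, 378 and 313 TPM in control and 142, 114 and 104 TPM in siDDX5 libraries. The difference between the DDX17 and the DDX5 intron was not tested by itself.

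The other expressed retained-intron transcripts of DDX5 had a larger share in siDDX5 cells. ENST00000578758.5, which has no base outside the exons of coding transcripts, had 15.1% ± 1.66 of the gene in control and 19.3% ± 1.61 in siDDX5 cells. ENST00000585317.1, which holds a whole intron of 215 bases (intron 9 of 12), had 2.07% ± 0.329 and 4.25% ± 1.17. ENST00000583894.1 (1.14% ± 0.0598 and 2.14% ± 0.341) and ENST00000585223.1 (0.86% ± 0.314 and 1.99% ± 0.562) were also higher in all siDDX5 libraries. So were ENST00000584549.1 (0.836% ± 0.151 and 1.77% ± 0.468) and ENST00000583562.1 (0.6% ± 0.298 and 1.46% ± 0.541), while ENST00000582326.1 and ENST00000581551.1 overlapped. ENST00000581551.1 did not pass the filter of the usage test, and none of the others was called. In sum the 9 expressed retained-intron transcripts of DDX5 held 42.2% ± 2.93 of its TPM in control and 53.1% ± 5.1 in siDDX5 cells. In level the 9 had 659 ± 94.9 and 306 ± 64.4 TPM, while all other DDX5 transcripts had 904 ± 122 and 282 ± 118 TPM. Since the share has the knocked-down gene as its denominator, it rises where a transcript falls less than the rest.

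**Figure D3:**
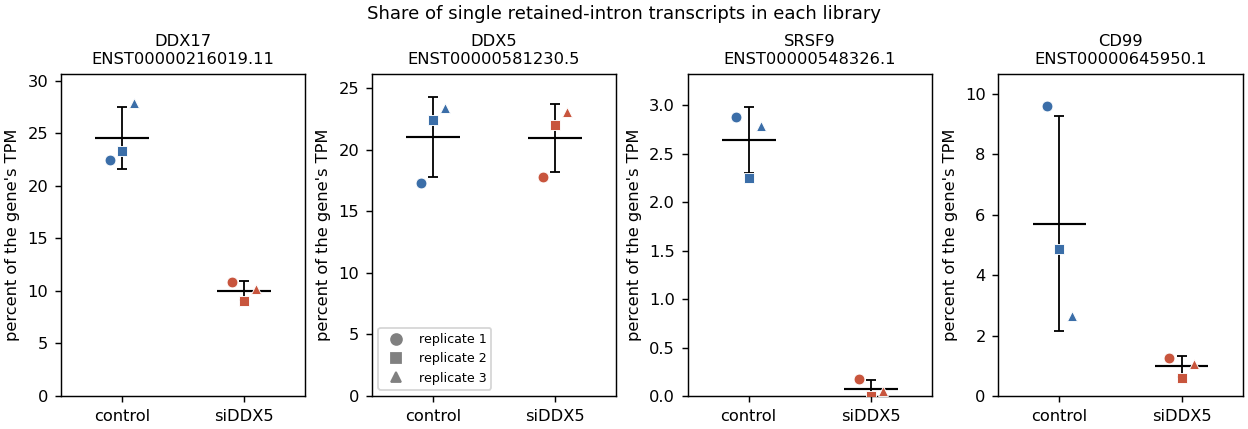
Share of 4 retained-intron transcripts in their gene (vertical axes, percent of the gene's TPM, each from 0) in the 3 control (blue) and 3 siDDX5 (red) libraries, with the line the mean, the bar the SD and the symbol the replicate number. The DDX17 transcript lies between 22.4% and 27.9% in control and between 9.01% and 10.8% in siDDX5 libraries, while the DDX5 transcript that keeps the same intron has a mean of 21.0% in both groups.

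SRSF9 encodes an SR protein that regulates splice site choice. Its transcript ENST00000548326.1 is 1 exon of 1704 bases with 72.4% of its bases outside coding-transcript exons, and crosses the 3′ splice site shown above. It had 3.97, 2.96 and 4.33 TPM in control and 0.234, 0 and 0.0791 TPM in siDDX5 libraries, from 90.1, 56.3 and 89.8 estimated counts against 4.01, 0 and 1.28. The transcript was near the floor of detection in all 3 siDDX5 libraries. Its share was 2.64% ± 0.339 and 0.0721% ± 0.088 of SRSF9 (SD, n = 3 each), a log2 usage change of -5.29 (adjusted p 3.77e-05, edgeR diffSpliceDGE), and a fitted change of this size depends on the prior count. It was called in 10 of 12 alternatives, the exceptions being limma-trend with pseudocounts of 1 (adjusted p 0.0569) and 0.1 (0.141). The other 2 expressed retained-intron transcripts of SRSF9 overlapped between groups. ENST00000548792.1 had 15.3 ± 3.97 and 14.2 ± 1.38 TPM, ENST00000546942.1 had 10.6 ± 1.43 and 10.7 ± 2.14 TPM, and the main coding transcript ENST00000229390.8 had 109 ± 13.8 and 125 ± 14.6 TPM.

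CD99 encodes a cell surface glycoprotein and lies in the region that the X and Y chromosomes share. Its transcript ENST00000645950.1 (497 bases) took 9.59%, 4.88% and 2.63% of the gene in control and 1.26%, 0.602% and 1.07% in siDDX5 libraries. The groups did not overlap, but control replicate 1 was far above the other controls. The mean was 5.7% ± 3.55 and 0.978% ± 0.34 (log2 usage change -2.73, adjusted p 0.0355, edgeR diffSpliceDGE). The call was lost with the replicate number as a block (adjusted p 0.191) and without control replicate 1 (adjusted p 0.898), control replicate 2 (0.0619), siDDX5 replicate 2 (0.23) or siDDX5 replicate 3 (0.0944), and the range over 12 alternatives was 0.0255 to 0.898. The main coding transcript ENST00000381192.10 had 220 ± 22.8 and 242 ± 20.9 TPM.

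Over all 11948 transcripts, shares that did not overlap between groups were counted without a test. There were 1551 (13.0%), 470 (3.93%) higher and 1081 (9.05%) lower in all siDDX5 libraries. Over the 55101 transcripts with the same minimum level in genes with at least 2 such transcripts, 14.1% did not overlap, 6.44% higher and 7.69% lower. The total for retained-intron transcripts was therefore close to the background, with a tilt to lower. Among coding transcripts 8.09% were higher and 6.98% lower, among nonsense-mediated decay transcripts 5.91% and 8.31%, and among processed transcripts 4.64% and 8.08%. The tilt rested in part on 1 library: without control replicate 2, 1271 were higher and 1449 lower. The background without that library is not given, so whether it changed alike cannot be told. For transcripts that hold a whole intron the counts were 109 higher and 298 lower of 3145. The median absolute difference in share was 0.99 percentage points, less than the median pooled SD of 1.56 points.

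**Figure D4:**
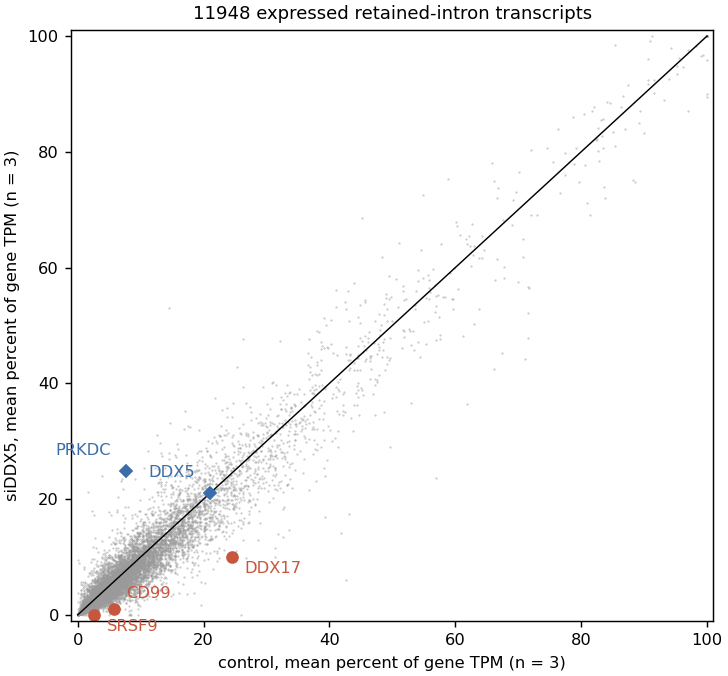
Mean percent of gene TPM in control (horizontal axis) and siDDX5 cells (vertical axis) for 11948 expressed retained-intron transcripts (grey points), with the line of equality. Red circles are the 3 transcripts called for usage, and blue diamonds are the DDX5 transcript that keeps intron 11 (21.0% and 21.0%) and a PRKDC transcript (7.65% and 24.8%); most points lie along the line.

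In level, none of the 9425 retained-intron transcripts tested was called by the edgeR quasi-likelihood test, where 0.0% of all 60811 transcripts were called. Without adjustment, 408 (4.33%) had a p under 0.05, against 7.11% of all transcripts. ENST00000581230.5 of the knocked-down DDX5 was among those not called (log2 change -1.36, SE 0.14, adjusted p 0.169, edgeR quasi-likelihood test). The absence of calls therefore does not show that levels were alike. DESeq2's Wald test called 22 of 11112 (0.198%), 9 higher and 13 lower, against 0.974% of all transcripts. Both limma-trend fits called 0, against 0.0135% and 0.00338% of all transcripts with pseudocounts of 1 and 0.1.

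Lists of splicing regulators and other genes were looked up for their retained-intron transcripts, to be read beside the medians and percentages above. For all transcripts these were a median log2 usage change of -0.029, and 6.44% higher and 7.69% lower without overlap. For all expressed retained-intron transcripts they were -0.13, 3.93% and 9.05%, so a list near those values does not differ from its class. In the transcripts given for these lists, bases outside coding-transcript exons ranged from 0.513% (BUD31) to 78.0% (SMG1) of the transcript. They were 2.95% in HNRNPU, 3.26% in DES and 5.99% in SRSF2. Where this part is small, the share depends on how reads shared with coding transcripts were divided. In SR proteins and TRA2, which bind exons and promote splicing, 48 transcripts in 13 genes were expressed, 1 was called (SRSF9), and 1 was higher and 5 were lower without overlap. The one higher was ENST00000582449.5 of SRSF2, with 16.7%, 21.3% and 23.5% of the gene in control and 27.7%, 27.9% and 29.3% in siDDX5 libraries. The gene had 297 and 317 TPM, and usage was not called (log2 change 0.55, adjusted p 1, edgeR). ENST00000485841.5 of SRSF10 (16.1% ± 2.45 and 14.4% ± 1.14) and ENST00000556184.5 of SRSF5 (12.5% ± 2.92 and 10.3% ± 3.9) overlapped. The median log2 usage change of this list was -0.21.

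Among hnRNP proteins, which coat nascent RNA and often oppose splicing, 81 transcripts in 18 genes were expressed and none was called. Of these 14 were lower and 0 higher without overlap. ENST00000553614.5 of HNRNPC had 27.1%, 25.6% and 25.2% in control and 24.5%, 11.9% and 23.0% in siDDX5 libraries, with replicate 2 far below the others. ENST00000366525.8 of HNRNPU, which keeps an intron of 84 bases, had 34.9% ± 0.964 and 31.2% ± 3.34, and ENST00000495810.1 of HNRNPA2B1 had 6.81% ± 2.12 and 5.64% ± 2.67. Their host genes were not called either, and the list's median log2 usage change was -0.26.

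Among RBM proteins (61 transcripts, 3 higher and 7 lower without overlap) and core spliceosome components (112 transcripts, 2 higher and 13 lower) none was called. ENST00000589825.5 of EFTUD2, the GTPase of the U5 particle, had 40.4% ± 0.954 and 37.4% ± 2.28. The 13 expressed retained-intron transcripts of EFTUD2 together held 59.8% ± 2.46 of that gene in control and 55.2% ± 2.75 in siDDX5 cells. ENST00000486960.5 of SF1, the branch point binding protein, had 25.7% ± 1.1 and 25% ± 3.86, and ENST00000496696.5 of BUD31 had 36.5% ± 3.61 and 33.9% ± 4.9. ENST00000471635.5 of RBM39, ENST00000532683.5 of RBM25 and ENST00000476261.5 of RBM34 overlapped between groups, as did those of SF1 and BUD31, while that of EFTUD2 was lower in all siDDX5 libraries. The median log2 usage change was -0.1 for RBM proteins and -0.13 for the core spliceosome.

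The CLK, DYRK and SRPK kinases, which phosphorylate SR proteins, and the speckle scaffolds had 69 transcripts, of which 2 were higher and 3 lower without overlap. ENST00000553501.1 of ACIN1 was lower, with 10% ± 0.695 and 8.73% ± 0.924, while ENST00000474355.1 of SON (10.3% ± 1.0 and 10.7% ± 0.396) and ENST00000526228.1 of BCLAF1 (16.7% ± 2.17 and 19.1% ± 4.46) overlapped. Genes known for detained introns had 72 transcripts, 9 higher and 8 lower, and the one called was that of DDX17. DDX5 is on this list too and gave 6 of the 9 higher. ENST00000481412.5 of MAT2A, the methionine adenosyltransferase, had 14.7% ± 2.28 and 11.9% ± 2.79, and ENST00000496096.5 of TIA1 had 21.8% ± 2.04 and 20% ± 2.1. The median log2 usage change was -0.24 for the kinases and scaffolds and -0.2 for the detained-intron genes.

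DEAD-box and DEAH-box helicases had 160 transcripts in 35 genes, with 11 higher and 12 lower without overlap and 1 called, that of DDX17. Of the 11 higher, 6 were in DDX5, where the knocked-down gene is the denominator of the share. DDX5 was the only host gene of this list that was called for its level. ENST00000494445.1 of EIF4A2, a translation initiation helicase, had 14.9% ± 0.469 and 17.0% ± 3.47, and ENST00000580108.1 of DDX42 had 22% ± 2.44 and 18% ± 2.79. Both overlapped between groups. The median log2 usage change of the list was -0.08.

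Nonsense-mediated decay and exon junction factors (34 transcripts, 1 higher and 5 lower) and mRNA export and cleavage factors (66 transcripts, 5 higher and 7 lower) had none called. ENST00000570051.5 of RNPS1, ENST00000544176.1 of MAGOHB and ENST00000569764.1 of SMG1 overlapped, at means of 26.1% and 25.7%, 30.5% and 28.5%, and 15.8% and 14.5% of their genes. ENST00000469897.1 of CPSF4, a cleavage and polyadenylation factor, had 24.8% ± 3.76 and 20.7% ± 3.39, and ENST00000567110.1 of NUDT21 had 13.4% ± 1.87 and 11% ± 1.71. Cytosolic ribosomal proteins had 193 transcripts in 67 genes, 9 higher and 9 lower without overlap, and a median log2 usage change of -0.06. The muscle and PAX3-FOXO1 identity genes had 16 transcripts, 0 higher and 4 lower. The highest of them, ENST00000492726.1 of DES, the muscle intermediate filament protein, had 45.3% ± 1.61 and 45.4% ± 1.89 of its gene.

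The host genes were tested for their total level in the same way. Of 5179 tested, 10 (0.193%) were called, 3 higher and 7 lower, and of all 15204 genes 0.171% were called. With the replicate number as a block 161 host genes were called, 57 higher and 104 lower, against 2.48% of all genes. Leaving out control replicate 1 or siDDX5 replicate 1 left 0 host genes called, and 0 of all genes (466 and 787 without adjustment at a p under 0.05), and leaving out siDDX5 replicate 2 or siDDX5 replicate 3 left 2, against 0.0256% and 0.0321% of all genes. In usage the block called 4 retained-intron transcripts of 9368, against 0.32% of all transcripts.

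The 10 called host genes were examined after their values were seen. They were chosen by the total of the gene, and in most of them the other transcripts hold most of that total, so those had to differ by the choice. The values of both kinds are given as a description. SFXN1, a mitochondrial serine carrier, rose (log2 change 1.07, SE 0.1, adjusted p 0.011, edgeR), and its other transcripts had 47.5 ± 5.2 and 87.4 ± 1.99 TPM. Its 5 retained-intron transcripts had 24.7, 22.7 and 21.6 TPM together in control and 24.9, 20.9 and 18.7 in siDDX5 libraries. HMGA2, an architectural chromatin protein, rose (log2 change 0.98, adjusted p 0.0426, edgeR), with 14.4 ± 1.59 and 27.3 ± 3.56 TPM on other transcripts, while ENST00000545998.1 had 4.66, 6.09 and 5.19 TPM in control and 5.74, 5.04 and 4.63 in siDDX5 libraries. In both genes the retained-intron levels overlapped between the groups.

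CTDSP2, a small phosphatase of the RNA polymerase II tail, fell (log2 change -1.17, adjusted p 0.0115, edgeR), with 905 ± 115 and 376 ± 92.3 TPM on other transcripts and 201 ± 26.7 and 153 ± 5.86 TPM on its 2 retained-intron transcripts. In PLAT, tissue plasminogen activator, the other transcripts had 68.2 ± 6.67 and 32.8 ± 4.36 TPM and the 3 retained-intron transcripts 5.34 ± 1.47 and 5.34 ± 2.25. RRBP1, a ribosome-binding protein of the endoplasmic reticulum, had 126 ± 9.65 and 66.2 ± 15.4 TPM on other transcripts and 3.48 ± 0.652 and 2.42 ± 0.717 on its retained-intron transcript.

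DDX5, given above, was also among the 10, and the remaining 4 did not share this or were low. GNAI2, a G protein alpha subunit, had 64.2 ± 12.5 and 26.7 ± 4.52 TPM on other transcripts and 7.68 ± 0.537 and 2.51 ± 0.559 on its retained-intron transcript. The ratio of means was thus larger for the latter, but its share of the gene overlapped between groups. Its usage was not called (log2 usage change -0.29). DCP2, the mRNA decapping enzyme, had 23.8 ± 4.33 and 42.6 ± 5.6 TPM on other transcripts. ENST00000508359.1 had 2.2 ± 0.901 and 1.05 ± 0.296 TPM, with the means in the opposite order. Its levels overlapped between the groups (1.17, 2.56 and 2.86 TPM in control and 1.37, 0.785 and 1.0 in siDDX5 libraries). It held 5.09 to 21.2 estimated counts per library and did not pass the filter of the tests. The transcripts in the adaptor GRB2 (0.837 ± 0.737 and 1.4 ± 1.07 TPM) and the methyltransferase cofactor TRMT112 (2.31 ± 2.83 and 3.28 ± 1.59 TPM) were at the spread between libraries.

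**Figure D5:**
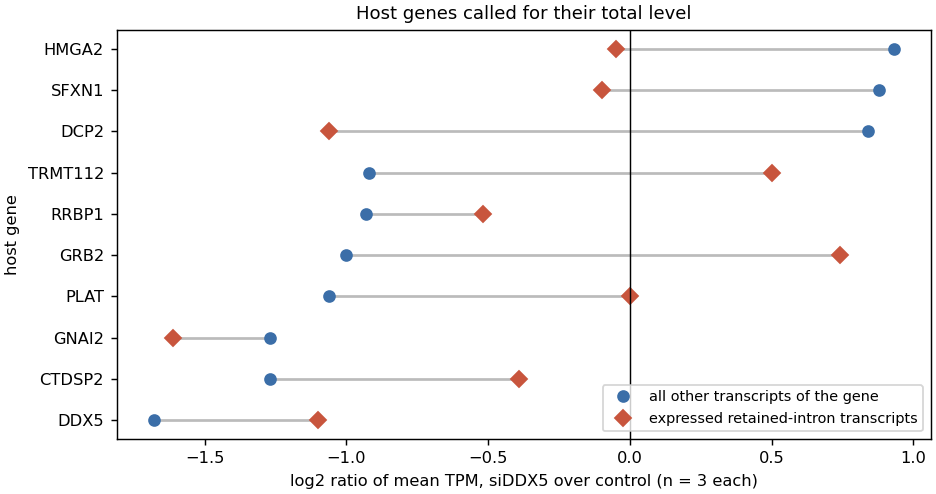
Log2 ratio of mean TPM, siDDX5 over control (horizontal axis, n = 3 each), for the retained-intron transcripts (red diamonds) and all other transcripts (blue circles) of the 10 host genes called for their total level. The retained-intron transcripts of SFXN1 and HMGA2 sit near 0 while the other transcripts are at 0.88 and 0.93, and GNAI2 is the one gene with both symbols on the same side of 0 and the diamond farther out.

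Over all 5179 host genes tested, the summed share of the retained-intron transcripts was set against the change of the gene. In the 120 genes with a log2 change under -0.5 the median difference in share was 0.66 percentage points, and 57.5% were higher in siDDX5 cells. In the 5001 genes between -0.5 and 0.5 it was -0.76 points, and 35.8% were higher. In the 58 genes with a log2 change above 0.5 it was -1.79 points, and 32.8% were higher. Since the gene's total is the denominator of the share, the measures are not independent, and no test was made.

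Among transcripts with a mean of at least 10 TPM, those with the largest differences in share without overlap were also listed after their values were seen. Beside DDX17, those with large differences downward included transcripts of NHLRC3, TRPA1, CBLL1, KDELR1, RASSF4 and PCGF1. ENST00000599084.1 of KDELR1, a receptor that returns proteins to the endoplasmic reticulum, had 17.5%, 17.0% and 19.5% in control and 7.96%, 6.41% and 7.91% in siDDX5 libraries. ENST00000489171.5 of RASSF4, which like that of DDX17 holds a whole intron, had 24.5% ± 4.78 and 14.2% ± 3.51. The 8 with the largest differences upward were in PRKDC, KIAA1551, WDR70, SEC62, SLC30A9, PLEKHA4, C12orf4 and DERL2. ENST00000536483.1 of PRKDC, the catalytic subunit of DNA-dependent protein kinase, had 4.32%, 11.4% and 7.25% in control and 12.8%, 36.6% and 25% in siDDX5 libraries. ENST00000543763.1 of KIAA1551 had 18%, 17.6% and 17.9% in control and 28.3%, 41.0% and 27.8% in siDDX5 libraries. Bases outside coding-transcript exons were 7.07% of the PRKDC and 8.27% of the KIAA1551 transcript. Among those listed they ranged from 3.19% (SEC62) to 62.4% (TRPA1). Where this part is small, the share depends on how shared reads were divided. Of the transcripts named here only that of DDX17 was called, and PRKDC (adjusted p 0.151, edgeR diffSpliceDGE) came next. The usage test does not measure the TPM share itself: ENST00000520788.1 of TRPA1 had 83.8% and 72.1% of its gene but a log2 usage change of -0.04. Differences of at least 10 points in either direction were found in 170 transcripts (1.42%), 72 higher and 98 lower. Over the 55101 background transcripts they were found in 2129 (3.86%), 1201 higher and 928 lower.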

How the data were processed

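Per the submitters' processing notes, reads were trimmed with cutadapt 1.11 and quantified with kallisto 0.46.0, and the build is GRCh38; the order and settings, and the strand option, are not given in the sources used here. The deposited tables give, for each library and transcript, an estimated count without normalization, in which the authors' quantifier divided reads shared between transcripts, and a TPM value scaled by the authors for effective length. TPM was used for levels and shares, and estimated counts, rounded to whole numbers, for tests. The SD values do not include the error of dividing reads.

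Of 188753 transcripts, 169797 (89.96%) were joined to GENCODE release 29 by identifier and 15322, on alternative copies of genes, by gene symbol; 3634 were left out, and 99.26% to 99.32% of counts were joined. All 158775 transcripts with an equal version had the annotated length, and intron coordinates are those of that annotation, counted from 1. No 2 libraries of a group differed by as little as sampling noise (chi-square per degree of freedom 22.5 to 31.0).

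Features were filtered with filterByExpr, scaled with TMM and fitted with glmQLFit in edgeR 4.0.16 (R 4.3.3). Levels were tested with glmQLFTest and usage with diffSpliceDGE, with Benjamini-Hochberg adjustment over all features tested. Same-numbered libraries deviated together (correlation of deviations over 15204 genes 0.206, 0.267 and 0.564 for replicates 1, 2 and 3, numbers from the titles), so the replicate block is given where it changes a call. Alternatives were DESeq2 size factors, DESeq2 1.42.0's Wald test, limma-trend (limma 3.58.1) with pseudocounts of 1 and 0.1, other filters and minimum levels, primary-assembly identifiers only, leaving out each library, and, added after seeing the data, transcripts that hold a whole intron. The steps were tested on simulated data, where the usage test made more false calls than its threshold allows.

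The members and lists were chosen with earlier results of these data known. Named transcripts are the 10 highest, those of DDX5 and DDX17 (up to 5 each), those called for usage, the 3 highest of each gene list (1 per gene) and those at the threshold; other names were chosen after their values were seen.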

Additional observations from a re-analysis of the deposited data

How the results depend on the processing

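The 3 transcripts called for usage became 7 with no filter on low counts (0.0586% of those tested, against 0.471% of all transcripts) and 1 among those that hold a whole intron, an alternative chosen after seeing the data that tests fewer transcripts. Leaving out 1 library gave 3 to 23, with 23 without siDDX5 replicate 1 (0.233%, against 0.917% of all transcripts in that fit), 12 without siDDX5 replicate 3 (0.121%, against 0.487%), and 5 without control replicate 1 (0.0512%, against 0.48%) or control replicate 2 (0.0527%, against 0.491%). DDX17 was called in 11 of 13 alternatives (adjusted p 0.29 and 0.224 in limma-trend with pseudocounts 1 and 0.1), SRSF9 in 10 of 12 (0.0569 and 0.141 there) and CD99 in 4 of 12. The DDX5 transcript that keeps intron 11 changed sign around 0, with a log2 usage change of -0.0012 and -0.0011 in the limma-trend fits and from -0.07 (without control replicate 1) to 0.09 when 1 library was left out. No retained-intron transcript was called for level except by DESeq2's Wald test, which called 22 (0.198%, against 0.974% of all transcripts).

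With the replicate block, 161 host genes (3.11%, against 2.48% of all genes) were called in place of 10. In usage the pairing by replicate number called 4 transcripts and not 3. DDX17 and SRSF9 remained and CD99 was lost. XPO1 was added as higher in siDDX5 cells (log2 usage change 1.02, adjusted p 0.0384, edgeR diffSpliceDGE) and CTPS1 as lower (-3.27, adjusted p 0.0345). The XPO1 transcript, ENST00000481073.5, had 6.11% ± 0.992 of its gene in control and 12.9% ± 5.37 in siDDX5 cells. It was also called higher with a mean of at least 50 counts, with primary-assembly identifiers only and without siDDX5 replicate 1. The block changed no call of transcript level. The 10 called host genes became 51 with no filter (0.983%, against 0.524% of all genes) and 132 with DESeq2's Wald test (2.63%, against 2.71%). Both limma-trend fits called 0 host genes (528 and 533 at an unadjusted p under 0.05), where 0.00673% of all genes were called. The called host genes became 0 to 9 when 1 library was left out. There were 9 without control replicate 2 (0.174%, against 0.0911% of all genes) and 7 without control replicate 3 (0.135%, against 0.104%). Without control replicate 1 or siDDX5 replicate 1 there were 0 (466 and 787 at an unadjusted p under 0.05), and 0 of all genes. Without siDDX5 replicate 2 or siDDX5 replicate 3 there were 2 (0.0386% each, against 0.0256% and 0.0321%). The causes were not tested.

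Of the 1551 transcripts without overlap, 462 had a mean of at least 5 TPM and 407 held a whole intron, both from fewer transcripts, and leaving out 1 library gave 2525 to 3121, since smaller groups overlap less often. The matching counts over all background transcripts are not given for these settings. Whether these counts are particular to retained-intron transcripts therefore cannot be told. The difference of -0.747 points in the share of all TPM kept its sign in every alternative run and ranged from -1.114 to -0.29 without 1 library, the smallest without control replicate 2. Low counts limit the rest: 2580 transcripts could not be tested for usage.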

Other observations

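The 22 retained-intron transcripts that only DESeq2's Wald test called for level (0.198% of those tested, against 0.974% of all transcripts) include the following, named after their values were seen. ENST00000520687.1 of SPARC, a secreted glycoprotein that binds collagen, had a mean of 287 TPM and a log2 level change of 1.02 (adjusted p 8.24e-08, DESeq2), with 40.6% of its gene in control and 45.2% in siDDX5 cells. ENST00000582449.5 of SRSF2 was called higher (log2 change 0.67, adjusted p 0.0291, DESeq2), as was ENST00000523752.5 of TNFRSF10B, a TRAIL receptor (1.31, adjusted p 0.00341). ENST00000572952.1 of SRRM2, a nuclear speckle scaffold, was called lower (-1.11, adjusted p 0.038, DESeq2), as was ENST00000527306.1 of HOOK3, a dynein adaptor (-2.63, adjusted p 0.00694), whose share of its gene was 18.5% in control and 3.77% in siDDX5 cells. The edgeR quasi-likelihood test called none of them.

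ENST00000559174.1 of TLN2, a talin that links integrins to actin, had 0.166% ± 0.287 of its gene in control and 8.89% ± 0.879 in siDDX5 cells (SD, n = 3 each). Its usage was called with no filter (adjusted p 0.0335, edgeR diffSpliceDGE) and in limma-trend with a pseudocount of 1 (adjusted p 0.0422). With the filter on low counts it was not called (log2 usage change 5.18, adjusted p 0.0709, edgeR diffSpliceDGE), at a mean of 2.1 TPM.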
